A study of Homo sapiens with 3 samples.

Results

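The MAPK phosphatases described here are 7 genes of the dual-specificity phosphatase (DUSP) family: DUSP1, DUSP4, DUSP5, DUSP6, DUSP7, DUSP10 and DUSP16. They were taken by gene symbol, and all 7 have a row among the 15625 genes of the deposited table. The samples were HCT116 cells, an established human colorectal cancer line. Messenger RNA was sequenced from 2 libraries with shRNA against circRAPGEF5 (sh_circRAPGEF5_1 and sh_circRAPGEF5_2, called knockdown 1 and knockdown 2 below) and from 1 library with control shRNA (sh_control). Every library shares the genotype entry MT, which the labels do not spell out, and the transfected shRNA system. Harvest was at 36 or 48 h, with no library tied to either time. Whether the knockdown libraries stand for separate hairpins or cultures is not given. The p-values therefore reflect just the variation between the 2 knockdown libraries, pooled in part over genes, and part or all of it may be technical. The series title names RAS/RAF/MEK/ERK signaling as the question.

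MAP kinases (ERK, JNK and p38) are switched on by phosphorylation of a threonine and a tyrosine in their activation loop, and dual-specificity phosphatases remove both phosphates. Several of these phosphatases are themselves transcribed in response to ERK activity, so they form a negative feedback loop, and their messenger RNA is widely read as a trace of ERK output. The members fall into nuclear inducible enzymes (DUSP1, DUSP4, DUSP5), cytoplasmic enzymes that prefer ERK (DUSP6, DUSP7), and enzymes that prefer JNK and p38 (DUSP10, DUSP16).

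Levels are given as FPKM, a fragment count divided by gene length and library depth, so different genes can be set side by side. The smallest whole numbers of reads that give the deposited values summed to 14832142 in knockdown 1, 15758794 in knockdown 2 and 14632390 in the control. The epithelial genes EPCAM, KRT8, KRT18, KRT19 and CDH1 were between 20.3 and 1694 FPKM in every library, while 4 leukocyte, 1 fibroblast and 3 endothelial markers with a row stayed under 1 FPKM in all 3 libraries. RAPGEF5, the host gene of the targeted circular RNA, was at 1.33 and 2.73 FPKM in knockdown 1 and 2, against 1.98 FPKM in the control. The circular RNA itself is not measured by this linear transcript, so the knockdown could not be checked.

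DUSP4, DUSP5 and DUSP6 were each at more than 2-fold the control level in both knockdown libraries. The other 4 members showed no such difference. DUSP7 and DUSP10 were each above the control in knockdown 1 and below it in knockdown 2, and DUSP1 and DUSP16 were below it in both. Some of these gaps were within counting error: DUSP1 in knockdown 1, and DUSP7 and DUSP10 in knockdown 2. None of the 6 members tested passed the test across all genes. The control has 1 library and no spread of its own.

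**Figure D1:**
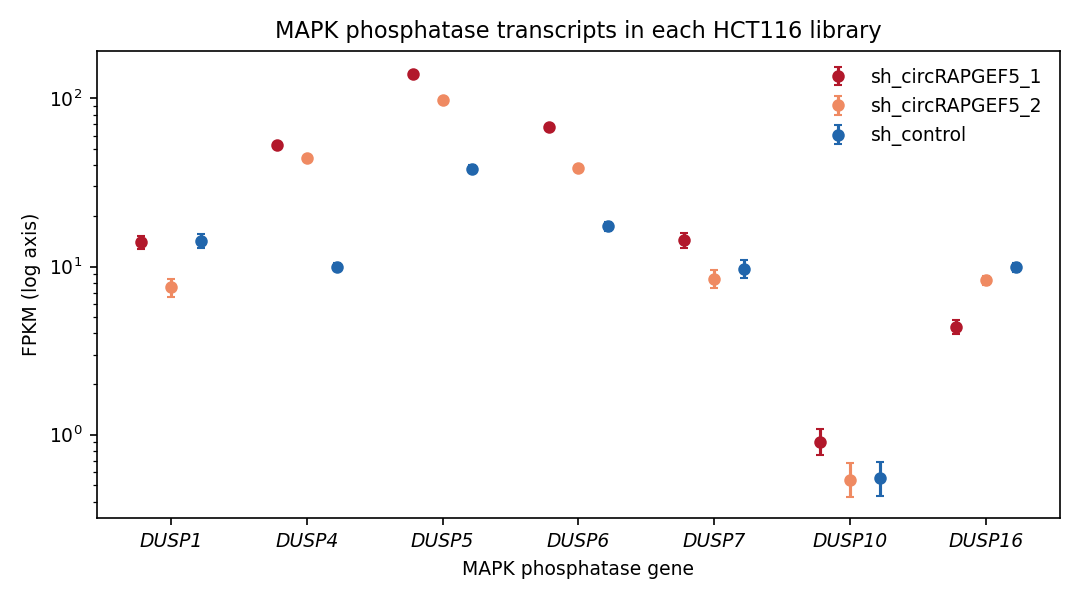
FPKM (log axis) of each of the 7 phosphatase genes in sh_circRAPGEF5_1, sh_circRAPGEF5_2 and sh_control, 1 point per library. Bars are 95% counting intervals, which cover counting error only; DUSP4, DUSP5 and DUSP6 stand above the control in both knockdown libraries, and the other 4 genes do not.

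DUSP4 (Entrez 1846; GRCh38 chromosome 8, 29333064 to 29350668, minus strand) encodes a nuclear phosphatase of ERK and JNK. It was at 53.0 FPKM in knockdown 1 and 44.1 FPKM in knockdown 2, against 9.93 FPKM in the control. Both knockdown libraries were high and within 1.20-fold of each other. The FPKM ratio to the control was 5.34 in knockdown 1 and 4.44 in knockdown 2. On the log2(FPKM + 1) scale, which understates the change of weakly expressed genes, the mean difference was 2.18 ± 0.40 (SE), with a limma adjusted p of 0.173. By this mean, DUSP4 ranked 9 from the top of the 11216 genes tested, the highest of the members.

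DUSP5 (Entrez 1847; chromosome 10, 110497838 to 110511544, plus strand) encodes a nuclear phosphatase specific for ERK, which it also anchors in the nucleus. Its level was 140.0 FPKM in knockdown 1 and 97.2 FPKM in knockdown 2, against 38.2 FPKM in the control. It was the most abundant member in every library, and the knockdown values differed by more than their counting intervals (136 to 144 and 94.3 to 100.2 FPKM). The log2 difference from the control was 1.85 in knockdown 1 and 1.32 in knockdown 2. Their mean of 1.58 ± 0.41 (SE) had a limma adjusted p of 0.456 and ranked 44 among the genes tested.

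DUSP6 (Entrez 1848; chromosome 12, 89347232 to 89353271, minus strand) encodes the cytoplasmic phosphatase that acts on ERK with high selectivity. It was at 67.7 FPKM in knockdown 1 and 38.4 FPKM in knockdown 2, against 17.3 FPKM in the control. Both knockdown values were higher, knockdown 1 by a ratio of 3.91 and knockdown 2 by 2.22. The mean log2 difference was 1.505 ± 0.440 (SE), with a limma adjusted p of 0.499 and rank 50. Of the 3 members that were at least 2-fold higher in both knockdown libraries, DUSP6 had the widest gap between those libraries, at 0.80 on the log2 scale.

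The stretch of 250 bases upstream of the RefSeq start site is printed for DUSP6, a member that was high in both knockdown libraries, and for DUSP1, an inducible member that was not (RefSeq, GRCh38.p14, minus strand; chr12:89352502-89352751 and chr5:172771196-172771445). Capitals mark matches, on either strand, to 5 motifs: the cyclic AMP response element TGACGTCA, the AP-1 motif TGANTCA, the ETS motif CCGGAA, the TATA motif TATAAA and the CArG box.
DUSP6: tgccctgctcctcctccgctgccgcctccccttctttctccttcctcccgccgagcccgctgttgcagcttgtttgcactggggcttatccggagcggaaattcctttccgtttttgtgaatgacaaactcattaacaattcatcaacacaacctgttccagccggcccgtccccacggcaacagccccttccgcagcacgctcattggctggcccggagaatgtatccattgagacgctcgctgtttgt
DUSP1: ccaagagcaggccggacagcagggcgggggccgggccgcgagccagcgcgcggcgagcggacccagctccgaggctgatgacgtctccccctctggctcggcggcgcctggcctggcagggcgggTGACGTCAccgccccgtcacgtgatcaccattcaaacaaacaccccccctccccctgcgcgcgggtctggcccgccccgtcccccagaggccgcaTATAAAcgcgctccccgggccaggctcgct
The DUSP1 window holds TGACGTCA, 125 to 118 bases before the start, and TATAAA, 30 to 25 bases before it, and these matches do not overlap. TGACGTCA is in 1.65% and TATAAA in 10.7% of the 35116 human windows of the same length in the RefSeq table. The DUSP6 window holds none of the 5 motifs, nor do those of DUSP7, DUSP10 and DUSP16. The DUSP6 window lies wholly inside the GENCODE gene interval, which reaches 89353271, so RefSeq and GENCODE place the start differently. A DUSP10 window (221736901 to 221737150) also lies inside its GENCODE interval, and the other DUSP10 window overlaps the end of that interval. For DUSP6 the lack of matches thus covers only the stretch before the RefSeq start. Bases before the GENCODE start of DUSP6 were not searched. Over all windows TGANTCA was found in 6.57%, CCGGAA in 14.5% and the CArG box in 1.16%, so most windows lack each motif. Promoter windows were matched for 5 of the 7 members. DUSP4 and DUSP5 were not analysed for sequence here.

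DUSP7 (Entrez 1849; chromosome 3, 52048919 to 52056550, minus strand), the cytoplasmic ERK phosphatase most like DUSP6, was at 14.3 FPKM in knockdown 1 and 8.42 FPKM in knockdown 2, against 9.71 FPKM in the control. One knockdown library was above and the other below the control, and the counting intervals of knockdown 2 (7.41 to 9.54 FPKM) and of the control (8.58 to 11.0 FPKM) overlapped. The mean log2 difference was 0.16 ± 0.45 (SE), with a limma adjusted p of 0.971. A ratio of the 2 genes within a library does not depend on how the library was scaled. DUSP6 was at 4.73 times DUSP7 in knockdown 1 and 4.55 times in knockdown 2, against 1.78 times in the control.

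DUSP1 (Entrez 1843; chromosome 5, 172768090 to 172771195, minus strand), an immediate-early gene whose nuclear product acts on p38, JNK and ERK, was at 13.9 FPKM in knockdown 1 and 7.51 FPKM in knockdown 2, against 14.2 FPKM in the control. Knockdown 1 was level with the control within counting error and knockdown 2 was lower, at a ratio of 0.529. The mean log2 difference was -0.43 ± 0.46 (SE), with a limma adjusted p of 0.893. Under median-ratio rescaling DUSP1 lay on opposite sides of the control in the 2 knockdown libraries. The nuclear members thus had unlike values: DUSP4 was at 3.81 and 5.87 times DUSP1 within knockdown 1 and 2, against 0.699 times in the control.

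DUSP16 (Entrez 80824; chromosome 12, 12474210 to 12562383, minus strand), which prefers JNK and p38, was at 4.39 FPKM in knockdown 1 and 8.29 FPKM in knockdown 2, against 9.94 FPKM in the control. Both knockdown libraries were below the control, knockdown 1 more so, at ratios of 0.441 and 0.834. It was the only member with a lower value in knockdown 1 than in knockdown 2. The mean log2 difference was -0.63 ± 0.47 (SE), with a limma adjusted p of 0.831.

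DUSP10 (Entrez 11221; chromosome 1, 221701424 to 221742176, minus strand), the other phosphatase that prefers JNK and p38, was weakly expressed, at 0.908 FPKM in knockdown 1 and 0.541 FPKM in knockdown 2, against 0.552 FPKM in the control. These rest on at least 125, 79 and 75 reads. Its mean over the libraries was under the minimum of 1 FPKM set for testing, so it has no test in the main fit. Knockdown 2 and the control differed by less than their counting intervals.

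None of the 6 members tested was called by limma in either direction at an adjusted p of 0.05, against 0.0178% of all genes tested. With an unadjusted p under 0.05 there were 3 of the 6 (DUSP4, DUSP5 and DUSP6), beside 793 of the 11216 genes. At least 2-fold higher in both knockdown libraries on the log2(FPKM + 1) scale were 3 of the 6 members tested, against 1.21% of genes tested. None of the 6 was at least 2-fold lower in both, against 1.7% of genes tested. The members were picked with earlier results of these data known, so these contrasts are descriptions only. Lower than the control in both knockdown libraries by any amount were 2 members, DUSP1 and DUSP16, where 37.6% of genes tested were. Over all 7 members, with no filter, the median log2 difference was 0.16, against -0.03 over all 15625 genes, and it was 0.51 in knockdown 1 and -0.01 in knockdown 2. Both fold changes use the same control library, so a deviation of that library alone would enter both. For a single gene, the smallest p that an exact permutation test of these 3 libraries allows is 0.333.

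**Figure D2:**
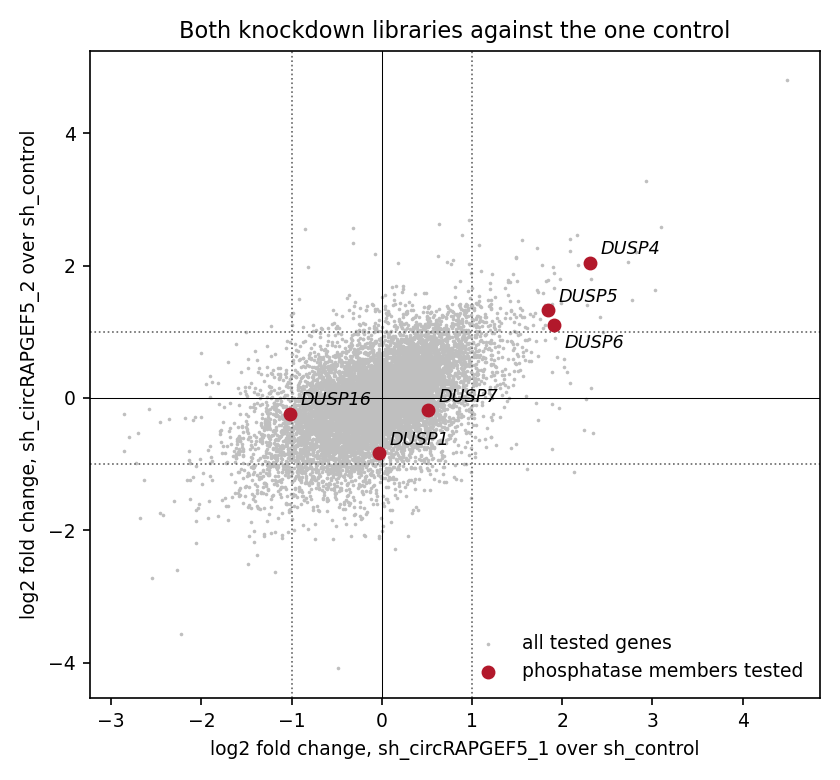
Log2 fold change of FPKM + 1 in sh_circRAPGEF5_1 (x axis) and sh_circRAPGEF5_2 (y axis) over the same sh_control library, for all 11216 genes tested (grey) and the 6 members tested (red). Dotted lines mark 2-fold; DUSP4, DUSP5 and DUSP6 lie past 2-fold on both axes, and DUSP1, DUSP7 and DUSP16 lie among the bulk of genes.

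The knockdown libraries also differed from each other in the members. The counting intervals of knockdown 1 and knockdown 2 did not overlap for any of the 7, against 66.7% of all genes tested. Between knockdown 1 and the control they were apart for 6 members (all but DUSP1), against 69.2% of genes tested, and between knockdown 2 and the control for 5 (all but DUSP7 and DUSP10), against 69.3%. Separation beyond counting error was thus common among genes in any pair of these libraries. Knockdown 1 had the higher value for 6 of the 7 members. How many of all genes tested were higher in knockdown 1 than in knockdown 2 was not computed. The ratio of knockdown 1 to knockdown 2 was 1.85 for DUSP1, 1.76 for DUSP6, 1.70 for DUSP7 and 1.68 for DUSP10. It was 1.44 for DUSP5 and 1.20 for DUSP4, but 0.529 for DUSP16.

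Summed over the 7 genes, the phosphatase messenger level was 294 FPKM in knockdown 1 and 204 FPKM in knockdown 2, against 99.9 FPKM in the control. DUSP4, DUSP5 and DUSP6 account for this gap: without them the sum was 33.5 and 24.8 FPKM in knockdown 1 and 2, against 34.4 FPKM in the control. DUSP5 took 47.6% and 47.5% of the sum in knockdown 1 and 2, against 38.3% in the control. DUSP4 took 18.0% and 21.6%, against 9.94% in the control. The pair that prefers JNK and p38 took 1.80% and 4.32%, against 10.5% in the control. A share also falls when the sum rises: in level the pair was at 5.29 and 8.83 FPKM, against 10.49 FPKM in the control. The lower level of the pair was that of DUSP16. DUSP10 was at 0.908 and 0.541 FPKM in knockdown 1 and 2, against 0.552 FPKM in the control.

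The order of levels below DUSP5 differed between libraries. In knockdown 1 it ran DUSP5, DUSP6, DUSP4, DUSP7, DUSP1, DUSP16, DUSP10, with DUSP7 and DUSP1 within counting error of each other. In knockdown 2 it ran DUSP5, DUSP4, DUSP6, DUSP7, DUSP16, DUSP1, DUSP10, and the counting intervals of DUSP7, DUSP16 and DUSP1 overlapped from each to the next. In the control it ran DUSP5, DUSP6, DUSP1, DUSP16, DUSP4, DUSP7, DUSP10, with DUSP16, DUSP4 and DUSP7 between 9.71 and 9.94 FPKM and inside each other's intervals. DUSP4 thus stood beside DUSP16 in the control and at 12.1 and 5.32 times DUSP16 in knockdown 1 and 2.

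**Figure D3:**
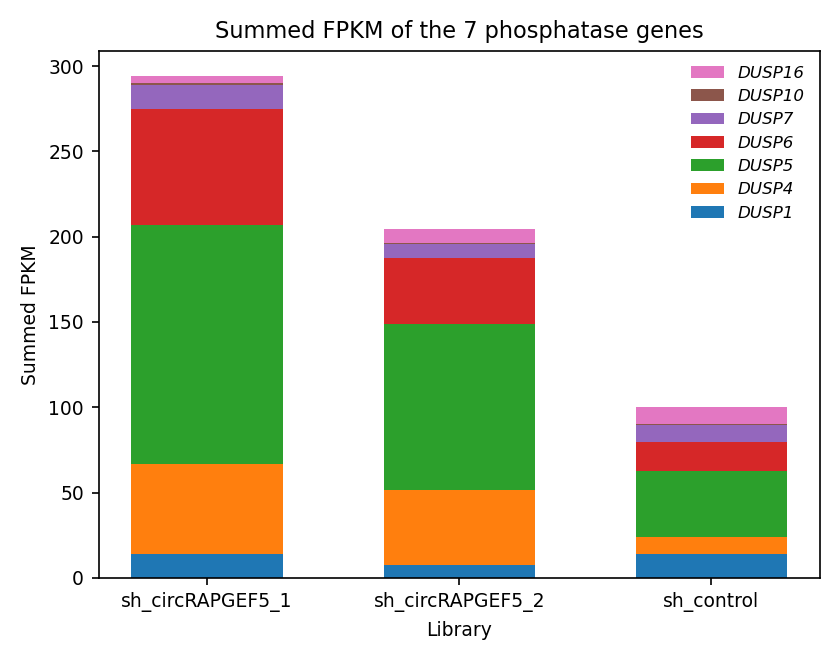
Summed FPKM of the 7 phosphatase genes in sh_circRAPGEF5_1, sh_circRAPGEF5_2 and sh_control, 1 bar per library, split by gene. The bars reach 294, 204 and 99.9 FPKM, and the DUSP4, DUSP5 and DUSP6 segments make up the gap to the control.

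The typical MAPK phosphatases outside the set were DUSP2, DUSP8 and DUSP9. DUSP2, a nuclear inducible enzyme first described in lymphocytes, was at 9.61 and 13.7 FPKM in knockdown 1 and 2, against 4.62 FPKM in the control (mean log2 difference 1.15 ± 0.44 SE, limma adjusted p 0.623). In plain FPKM DUSP2 was more than 2-fold the control in both knockdown libraries, as were DUSP4, DUSP5 and DUSP6. On the log2(FPKM + 1) scale it was at 0.92 in knockdown 1, which is under 2-fold. Unlike DUSP4, DUSP5 and DUSP6, it had its higher value in knockdown 2. DUSP8, which prefers JNK and p38, was at 5.30 and 3.23 FPKM in knockdown 1 and 2, against 4.002 FPKM in the control. DUSP9, a cytoplasmic relative of DUSP6, was at 2.54 and 7.22 FPKM, against 6.30 FPKM in the control. Both thus lay on opposite sides of the control.

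Among atypical dual-specificity phosphatases and their relatives, most of which lack the kinase-binding domain of the typical enzymes, 12 genes were tested and limma called none. Of these, 5 were higher than the control in both knockdown libraries, 4 lower in both and 3 on opposite sides, with a median log2 difference of 0.04, against -0.05 over all genes tested. The farthest from 0 were STYX, a catalytically dead relative that binds ERK, at -1.04, DUSP14 at 1.002, DUSP28 at -0.74 and DUSP11, an RNA phosphatase, at 0.55. STYX was at 3.92 and 5.40 FPKM in knockdown 1 and 2, against 10.5 FPKM in the control. DUSP14 was at 31.9 and 16.1 FPKM, against 10.8 FPKM in the control. On the log2(FPKM + 1) scale none of the 12 was 2-fold from the control in both libraries. In plain FPKM the weakly expressed DUSP28 was, at 0.660 and 0.680 FPKM in knockdown 1 and 2, against 1.78 FPKM in the control.

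The kinases that these enzymes act on showed no shared direction. Of 9 MAP kinase genes tested, 1 was above the control in both knockdown libraries, 4 were below it in both and 4 were split around the control, with a median log2 difference of -0.10 and none called by limma. MAPK3, which encodes ERK1, was at 15.6 and 25.4 FPKM in knockdown 1 and 2, against 28.7 FPKM in the control. The p38 gene MAPK11 (-0.63) and the ERK5 gene MAPK7 (-0.37) were also among the genes farthest from 0. These are transcript levels and say nothing of phosphorylation.

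Among 6 MAP kinase kinases tested, 2 were higher in both knockdown libraries and 4 lay on opposite sides, with a median of 0.21 and none called. MAP2K3, an activator of p38, was at 77.2 and 54.0 FPKM in knockdown 1 and 2, against 25.04 FPKM in the control, and was the only 1 of the 6 at 2-fold in both. MAP2K4, which activates JNK and p38, was at 32.3 and 21.4 FPKM, against 13.2 FPKM in the control. MAP2K1 and MAP2K2, which encode the ERK activators MEK1 and MEK2, had mean log2 differences of 0.31 and 0.10. Of 9 other phosphatases that act on MAP kinases, 3 were higher in both, 1 lower in both and 5 on opposite sides, with a median of 0.19 and none called. The protein phosphatase 2A subunit genes PPP2R2A (0.72), PPP2CB (0.56) and PPP2R1A (-0.55) and the stress-induced phosphatase PPM1D (0.25) were farthest from 0.

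ERK target genes other than DUSPs were set beside the phosphatases: 14 of 16 listed were tested, 11 of them higher in both knockdown libraries, against 31.7% of genes tested, 2 lower in both and 1 on opposite sides. At least 2-fold higher in both were 4, and limma called none, although 5 had an unadjusted p under 0.05. The median log2 difference was 0.55, with 0.73 in knockdown 1 and 0.34 in knockdown 2. SPRY4, an inhibitor of the RAS-ERK pathway, was at 39.5 and 24.4 FPKM in knockdown 1 and 2, against 5.09 FPKM in the control (limma adjusted p 0.173). FOSL1, an AP-1 subunit, was at 163 and 61.2 FPKM, against 19.0 FPKM in the control (limma adjusted p 0.337). EPHA2, a receptor tyrosine kinase, had a mean log2 difference of 1.21. FOS, an AP-1 subunit, was at 32.5 and 11.6 FPKM, against 46.8 FPKM in the control. It was 1 of the 2 tested genes that were lower in both knockdown libraries, where 11 of the 14 were higher in both.

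**Figure D4:**
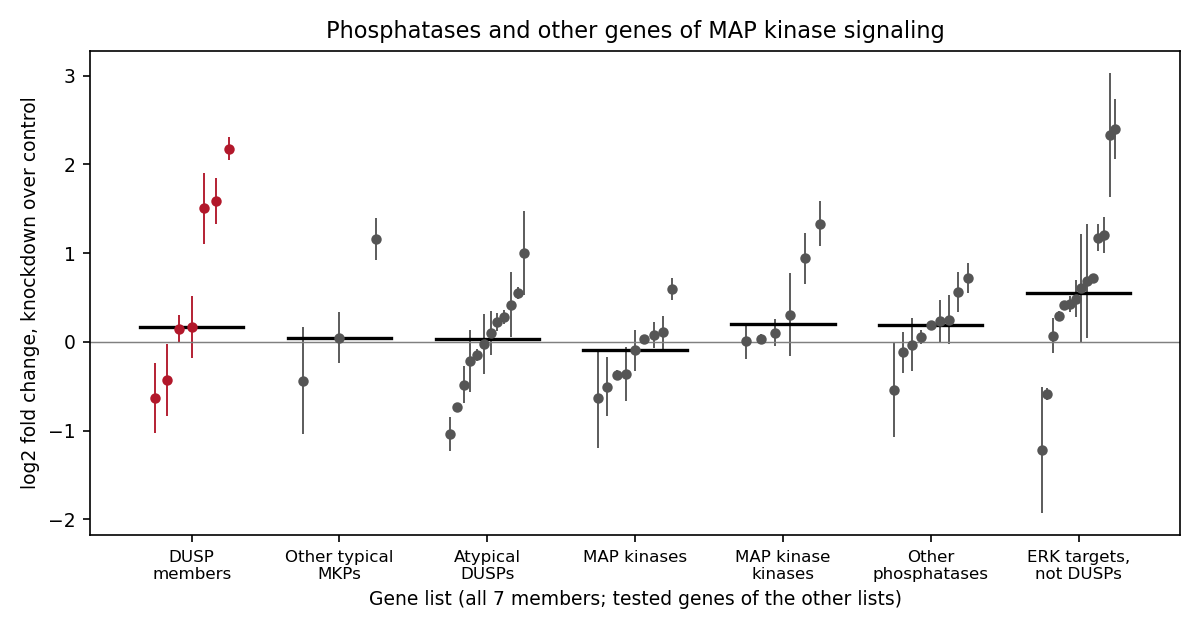
Log2 fold change of FPKM + 1, knockdown over control, for the 7 members (red) and the tested genes of 6 related lists (grey). Points are means of the 2 knockdown libraries, thin bars join the values of the 2 libraries, and thick lines are list medians; the members spread from -0.63 to 2.18 and the atypical phosphatases from -1.04 to 1.002.

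Profiles were compared by the distance between pairs of log2 differences (knockdown 1 and 2 over the control), over 3 libraries. Within the set, DUSP5 and DUSP6 were closest, at 0.23, while DUSP4 lay 0.86 from DUSP5 and 1.02 from DUSP6. Outside the lists, the genes nearest to DUSP4 were GTF3A (0.14), VGF (0.25) and SLC16A6 (0.29). Nearest to DUSP5 were COQ10B (0.01), LIMA1 (0.05) and IRAK2 (0.09), and nearest to DUSP6 were ID2 (0.09), MSX1 (0.13) and F2RL1 (0.17). COQ10B, for example, was at 26.7 and 18.5 FPKM in knockdown 1 and 2, against 6.71 FPKM in the control. Within 0.2 of DUSP4, DUSP5 and DUSP6 lay 1, 8 and 4 such genes. With 3 libraries a profile holds only 2 differences, and they share the control, so likeness is a description.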

How the data were processed

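RNA was extracted with TRIzol and the mirVana kit and built into TruSeq Stranded mRNA LT libraries, per the labels' protocols. FPKM values were computed by the authors and deposited as 1 table. The submitters' processing notes name Trimmomatic, HISAT2 and GRCh38.p13. Tool versions, the counter, its strand setting and the annotation were not given in the sources used here. GENCODE 29 places antisense or opposite-strand genes over DUSP1, DUSP6 and DUSP16, so without the strand setting their reads may include those.

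Genes with a mean FPKM of at least 1 were tested as log2(FPKM + 1) with limma 3.58.1 (R 4.3.3, mean-variance trend), knockdown against control, with Benjamini-Hochberg adjustment over 11216 genes and a threshold of 0.05. There is 1 residual degree of freedom, from the difference between the knockdown libraries, and the lone control is assumed to vary like them. The fit adds a prior of 10.9 degrees of freedom taken from all genes tested. The SE of a gene thus rests mostly on the spread typical of genes at its level. On simulated data this fit made more false calls than its threshold allows, so its adjusted p-values may run small. The simulation gave the lone control the same spread as the knockdown libraries, so it cannot check that assumption.

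After division by a depth factor for each library, FPKM ratios between libraries were ratios of whole reads in 100% of genes (relative tolerance 1e-11). Depth was 1.01 and 1.07 times the control in knockdown 1 and 2. True read numbers may be multiples of these smallest ones, so the 95% exact Poisson intervals may be too wide; they cover counting error only.

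Gene positions are from GENCODE 29 (GRCh38), sequences from RefSeq. All 7 members are described; of each related list at most the 4 tested genes farthest from 0 are named, plus SPRY4, FOSL1, MAPK3 and RAPGEF5; 1 gene that this rule takes is not reported here. For DUSP4, DUSP5 and DUSP6 the 3 nearest genes outside the lists are named. The members and lists were chosen with earlier results of these data known. Alternatives were other pseudocounts, filters, scalings, limma settings and fold thresholds, and leaving out each knockdown library.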

Additional observations from a re-analysis of the deposited data

How the results depend on the processing

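The direction of the mean difference and the side of the limma threshold stayed the same for each member tested in the alternatives with a limma test (54 values). Filters and limma settings leave the mean difference of a gene unchanged, so only the other pseudocounts and scalings could have altered its direction. DUSP4 had an adjusted p between 0.114 and 0.924 over the settings, DUSP5 between 0.315 and 0.924 and DUSP6 between 0.415 and 0.924. Leaving out 1 knockdown library gives values with no test. DUSP7 was then at -0.18 without knockdown 1 and 0.51 without knockdown 2, against a mean of 0.16. With 1 left out, the median of the 6 members tested was 0.46 to 1.18, and that of the ERK targets 0.34 to 0.73. The median of the 6 was 0.83, but 0.16 with no filter, where DUSP10 joins. Members at least 2-fold higher in both knockdown libraries numbered 3, but 2 with a pseudocount of 5, where DUSP6 was at 0.96 on the log2 scale in knockdown 2, and 1 (DUSP4) at a threshold of 3-fold. Over all genes limma called 2 higher. It called 1 with a pseudocount of 5, with median-ratio rescaling, without the trend and with robust fitting, and 0 with no filter, with quantile normalization and with a prior of 5 degrees of freedom. At least 2-fold in both libraries were 136 genes higher and 191 lower. These were 62 and 39 with a pseudocount of 5, 619 and 830 at 1.5-fold, and 22 and 16 at 3-fold. The lower count was 338 with a pseudocount of 0.1 and 107 when a mean FPKM of 5 was required. The cause of these shifts was not tested. No paired analysis was possible because the control has 1 library. By the smallest whole read numbers, depth limits DUSP10 most, at a minimum of 75 to 125 reads a library.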
